A study of Arabidopsis thaliana with 8 samples.

Results

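The MYB transcription factor genes of Arabidopsis thaliana were examined for binding by URI, also called bHLH121, a basic helix-loop-helix factor of the response to low iron (Fe). Members were the protein-coding genes whose symbol in the RefSeq gene table is MYB or MYBR followed by a number, apart from MYB10 and MYB72, which gave 114 of 27444 genes. A member counted as having a peak when a row of the authors' deposited peak table overlapped the gene or the 1500 bp next to either of its ends. The peaks come from chromatin immunoprecipitation and sequencing (ChIP-seq) of roots of a complementation line, in which the uri mutant carries a working URI gene. The controls share that line. URI was precipitated in 3 libraries from roots kept for 72 h under Fe deficiency and in 3 from roots kept for 72 h with sufficient Fe, and each condition has 1 IgG library as a control for unspecific precipitation. The promoter of the transgene, the number of independent lines and whether libraries came from separate plantings are not given in the labels, so p-values may measure technical spread.

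MYB factors bind DNA through repeats of the MYB domain and are grouped by their shared protein motifs. In plants they are best known for switching phenylpropanoid, flavonoid and glucosinolate synthesis, for building secondary walls and suberin, and for responses to drought, salt, cold and abscisic acid. MYB10 and MYB72 are the members of the family known for growth on low Fe, where MYB72 drives coumarin secretion. URI belongs to the bHLH proteins that act at the top of the Fe deficiency response and activate the Ib bHLH genes.

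Of the 114 MYB genes, 14 had a URI peak within 1500 bp and 100 had none. The share with a peak was 12.3%, against 11.8% of the 27330 other protein-coding genes, so MYB genes lay near peaks about as often as other genes did. The 14 genes were MYB102, MYBR1, MYB3, MYB1, MYB74, MYB63, MYB4, MYB59, MYB45, MYB15, MYB12, MYB77, MYB49 and MYB7, in order of their strongest peak. MYB4, MYB45 and MYB77 had 2 peaks each, which gives 17 peaks of the 2366 in the authors' deposited table. By the same symbol rule, a peak lay near 33 of 67 WRKY genes (49.3%), 17 of 79 NAC genes (21.5%) and 5 of 21 ERF genes (23.8%), and these shares were not tested against each other.

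The table gives 1 mean concentration per Fe condition, read here as the log2 of normalised reads averaged over the 3 URI libraries, with no value per library. Reads below are 2 to the power of that concentration. Changes are Fe deficiency minus Fe sufficiency on the log2 scale, and a positive value is more URI signal under deficiency. The spread between libraries is visible only through the authors' p-value, so a standard error (SE) and a 95% interval were taken from it under a normal approximation. For the 17 peaks these SEs ran from 0.34 to 0.70, with a median of 0.50. The depth of each library is unknown.

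No MYB peak differed between the Fe conditions at a false discovery rate (FDR) under 0.05 in the authors' deposited DiffBind table. Of the 17 peaks, 8 of which entered the authors' adjustment, 0 were higher, against 1.98% of the 1311 peaks whose FDR was adjusted there, and 0 were lower, against 0.0763%. The smallest FDR of a MYB peak in the authors' deposited table was 0.348, at MYB63. At an unadjusted p under 0.05, 0 were higher, against 3.55% of all 2366 peaks, and 1 was lower, against 10.1%. That peak lay near MYB45. The other 9 were too weak for the adjustment and carry an FDR of 1, as do 1055 peaks of the table, all at or below 11.5 reads.

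Most MYB peaks had lower values under deficiency, as did most peaks of the table. The authors' deposited table had 13 of the 17 changes below 0 (76.5%), against 79.8% of all peaks, and the median change was -0.43, against -0.46. With 1 peak per gene, the strongest, the MYB median was -0.235. Changes ran from -1.36 at MYB45 to 0.21 at MYB12. All 17 intervals contained the median of all peaks, and 16 contained 0. Relative to that median peak, 9 changes lay above 0, 7 below 0 and MYB3 at 0, so that the direction of the group median turned, to 0.03. After this recentring, done with the implied SEs, 0 MYB peaks were higher at an FDR under 0.05, against 4.81% of the adjusted peaks, and 0 were lower, against 0% of them. The smallest recentred FDR of a MYB peak was 0.836, at MYB102, with an SE taken from peaks of like concentration.

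**Figure D1:**
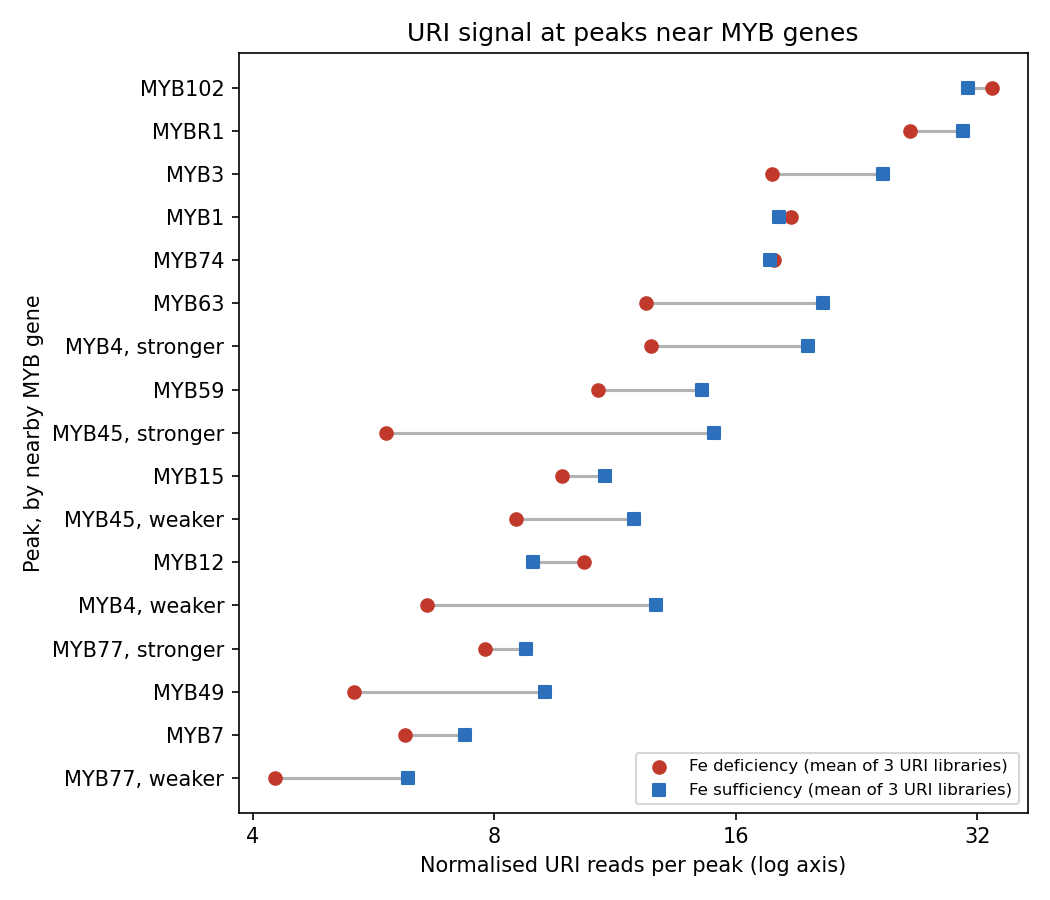
Normalised URI reads (log axis) at the 17 peaks near MYB genes under Fe deficiency (circles) and Fe sufficiency (squares), each the authors' mean of 3 libraries. The peak of MYB102 is the strongest, with 33.4 and 31.1 reads, and the widest gap is at the stronger MYB45 peak, with 5.86 and 15.0 reads.

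Among stress and hormone response genes, MYB102 and MYBR1 had the 2 strongest MYB peaks, and MYB77 had the weakest. MYB102 (AT4G21440), which responds to osmotic stress and wounding, had 33.4 reads under Fe deficiency and 31.1 reads with sufficient Fe in the authors' deposited table (chromosome 4, 11417071 to 11418146, TAIR10). Its change was 0.10 (SE 0.35, 95% interval -0.60 to 0.80, p = 0.828 in the authors' deposited table). This peak ranked 131 of 2366 by concentration and 44 by reads per kb of peak, with 30.0 reads per kb against a median of 16.6 over all peaks. It ended 53 bp from MYB102, and no other gene lay within 1500 bp.

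MYBR1 (AT5G67300), also known as MYB44, acts in abscisic acid signalling and stomatal closure. In the authors' deposited table it had 26.4 reads under deficiency and 30.7 with sufficient Fe (chromosome 5, 26852569 to 26854054), a change of -0.22 (95% interval -0.88 to 0.44, p = 0.514). The peak was the widest of the 17, at 1485 bp, ranked 189 by concentration and overlapped the gene by 32 bp. CYP81G1, a cytochrome P450 gene, also lay within 1500 bp of it. Set against the median peak, MYBR1 instead stood at 0.24.

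MYB74 (AT4G05100), a salt stress gene and close relative of MYB102, had 17.9 reads under deficiency and 17.6 with sufficient Fe in the authors' deposited table (chromosome 4, 2619572 to 2620915, change 0.01, 95% interval -0.81 to 0.83, p = 0.936). MYB49 (AT5G54230) belongs to the same subgroup and is known to promote cadmium uptake and to activate bHLH38 and bHLH101. Its peak was weak, with 5.35 reads under deficiency and 9.25 with sufficient Fe in the authors' deposited table (chromosome 5, 22017840 to 22018407, change -0.79, 95% interval -2.01 to 0.43, p = 0.203). The peaks of both genes reached into the gene, by 375 bp at MYB74 and 221 bp at MYB49. MYB41, the remaining gene of this subgroup and a regulator of suberin, had no peak within 1500 bp.

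MYB77 (AT3G50060), which works with auxin response factors in lateral root growth, is in the subgroup of MYBR1. Its stronger peak had 7.78 reads under deficiency and 8.75 with sufficient Fe in the authors' deposited table (chromosome 3, 18559082 to 18559541, change -0.17, p = 0.697), with its midpoint inside the gene. The weaker peak was the lowest and, at 305 bp, the narrowest of the 17, with 4.26 reads under deficiency and 6.23 with sufficient Fe in the authors' deposited table (chromosome 3, 18560638 to 18560943, change -0.55, p = 0.433). MYB70 and MYB73, the other genes of that subgroup, had none within 1500 bp. MYB15 (AT3G23250), a cold response regulator that also drives lignin in immunity, had 9.71 reads under deficiency and 11.0 with sufficient Fe in the authors' deposited table (chromosome 3, 8308803 to 8309345, change -0.17, p = 0.665). Over the 14 genes listed for abiotic stress and abscisic acid, 5 had a peak, against 11.8% of genes outside the MYB members, and the list was not tested. Those without one included MYB2, MYB30, MYB60, MYB94, MYB96 and MYB108.

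Among phenylpropanoid and flavonoid regulators, peaks lay at 3 of 4 repressor genes, MYB3, MYB4 and MYB7, and not at MYB32. Of 6 flavonoid and anthocyanin activators, MYB12 alone had one. Outside the MYB members 11.8% of genes had a peak, and neither list was tested. MYB3 (AT1G22640) had 17.8 reads under deficiency and 24.4 with sufficient Fe in the authors' deposited table (chromosome 1, 8004836 to 8005750, change -0.46, 95% interval -1.28 to 0.36, p = 0.273). By reads per kb it ranked 134 of all peaks, with 23.1. MYB4 (AT4G38620), a repressor of the cinnamate 4-hydroxylase gene C4H, had its stronger peak at 12.6 reads under deficiency and 19.7 with sufficient Fe in the authors' deposited table (chromosome 4, 18051142 to 18052229, change -0.65, p = 0.141, FDR 0.373). Its weaker peak, closer to the gene, had 6.59 reads under deficiency and 12.7 with sufficient Fe in the authors' deposited table (chromosome 4, 18052464 to 18053052, change -0.95, 95% interval -2.03 to 0.13, p = 0.0844). Both changes were below 0, and neither passed the test. MYB7 (AT2G16720) had 6.19 reads under deficiency and 7.36 with sufficient Fe in the authors' deposited table (chromosome 2, 7256490 to 7256896, change -0.25, p = 0.614), in a peak with its midpoint inside the gene.

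MYB63 (AT1G79180) activates lignin synthesis together with MYB58, and the pair are close relatives of MYB10 and MYB72. The MYB63 peak had 12.4 reads under deficiency and 20.5 with sufficient Fe in the authors' deposited table (chromosome 1, 29784632 to 29785784, change -0.73, 95% interval -1.61 to 0.15, p = 0.103). It lay 473 bp from MYB63, with no other gene within 1500 bp. MYB58 had none. MYB72 and MYB10 match the symbol rule and were left out by name. Their peaks had changes of 2.79 at MYB72 (95% interval 1.05 to 4.53, FDR 0.0689) and 1.49 at MYB10 (0.57 to 2.41, FDR 0.0657) in the authors' deposited table. All 17 MYB peaks had lower changes than both. The difference between MYB63 and these relatives was not tested.

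MYB12 (AT2G47460), which activates flavonol synthesis, was the member with the highest change, at 10.3 reads under deficiency and 8.94 with sufficient Fe in the authors' deposited table (chromosome 2, 19475803 to 19476415, change 0.21, 95% interval -0.90 to 1.32, p = 0.712). The interval spans both a fall and a rise of over 1.5 times at this low signal. CAO, a chlorophyll synthesis gene, lay within 1500 bp of the same peak. MYB11 and MYB111, which share this role, had no peak, nor had the anthocyanin regulators MYB90, MYB113 and MYB114.

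The remaining members with a peak were MYB1, MYB59 and MYB45. MYB59 (AT5G59780), which regulates nitrate and potassium movement from root to shoot, had 10.8 reads under deficiency and 14.5 with sufficient Fe in the authors' deposited table (chromosome 5, 24083231 to 24084106, change -0.43, p = 0.362). MYB1 (AT3G09230) had 18.8 reads under deficiency and 18.1 with sufficient Fe in the authors' deposited table (chromosome 3, 2831181 to 2832095, change 0.05, 95% interval -0.76 to 0.86, p = 0.949). That peak lay 1251 bp from MYB1, and the laccase gene LAC7 was nearer to it.

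MYB45 (AT3G48920) carried the lowest change of the members. The outer and slightly stronger of its 2 peaks had 5.86 reads under deficiency and 15.0 with sufficient Fe in the authors' deposited table (chromosome 3, 18137432 to 18138220, change -1.36, 95% interval -2.45 to -0.27, p = 0.0149). Its concentration was below the authors' limit for adjustment, so the deposited FDR is 1, and relative to the median peak the change was -0.90 (p = 0.107). It lay 952 bp from MYB45, and AT3G48900 was nearer to its midpoint. The inner peak, with its midpoint inside MYB45, had 8.51 reads under deficiency and 12.0 with sufficient Fe in the authors' deposited table (chromosome 3, 18138905 to 18139546, change -0.49, p = 0.332).

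**Figure D2:**
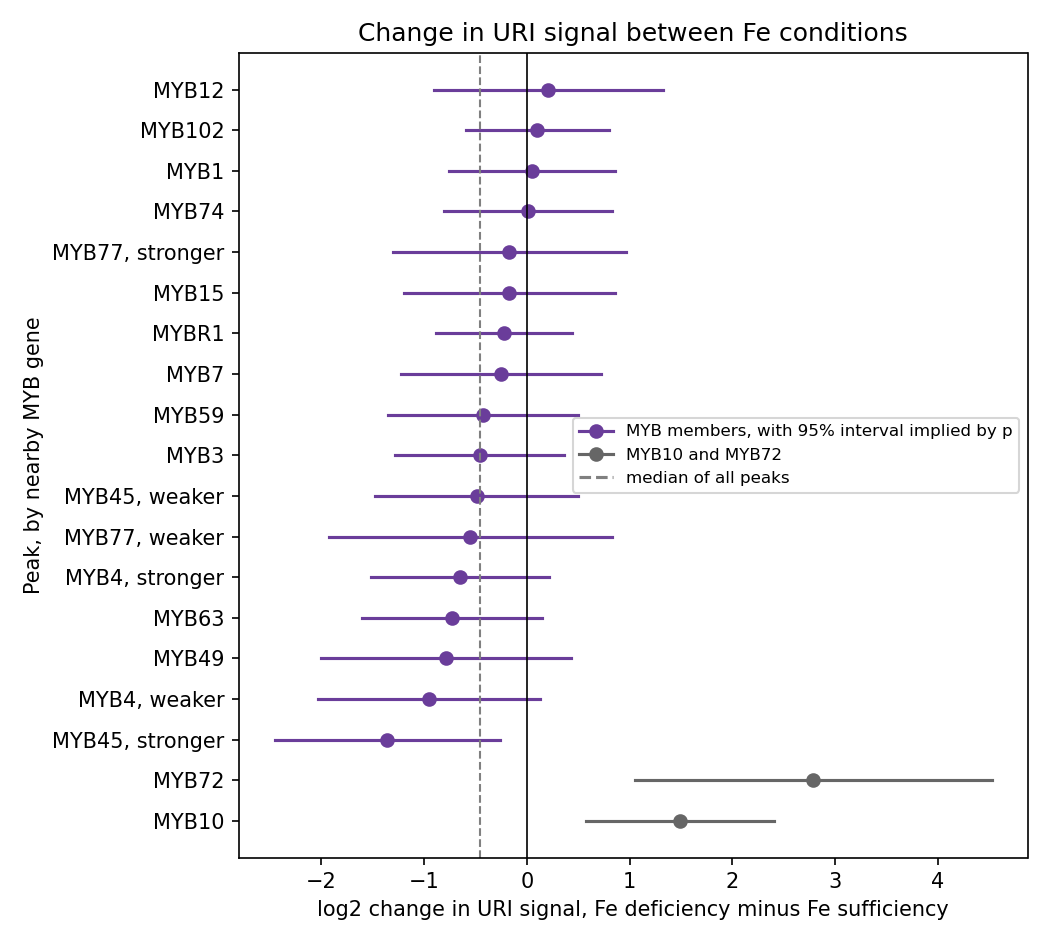
Change in URI signal (log2, Fe deficiency minus Fe sufficiency) at each MYB peak, with a 95% interval. The peaks of MYB72 and MYB10 are at the bottom. Intervals are implied by the authors' p-value, or by those of peaks of like concentration for changes smaller than 0.2 in size. The 17 values run from -1.36 to 0.21 around the dashed median of all peaks at -0.46, below MYB10 at 1.49 and MYB72 at 2.79.

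Groups of MYB genes with other roles had no peak within 1500 bp. These were all 6 glucosinolate regulators (MYB28, MYB29, MYB34, MYB51, MYB76 and MYB122), all 9 listed genes of suberin and the endodermis, MYB36, MYB41, MYB53 and MYB92 among them, and all 8 listed genes of flower and anther development. Of the 10 secondary wall and lignin genes, MYB63 alone had one, and MYB46 and MYB83, the switches of secondary wall formation, had none. For comparison, 11.8% of all other genes had a peak, and no list was tested.

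The midpoint was inside the MYB gene at 3 of the 17 peaks, while 19.4% of all peaks of the table had theirs inside a protein-coding gene. It was outside the MYB gene at 14, of which 13 were on the side with the longer gap to the next gene. The exception was MYB3. The same count was not made for other genes. The shorter gap measured 0 bp at MYB1, MYB45 and MYBR1, 147 bp at MYB77, 646 bp at MYB63 and 652 bp at MYB59. A midpoint has little room in such a gap. Of the 17 peaks, 9 overlapped their MYB gene and 8 lay up to 1312 bp away, and at 10 no other protein-coding gene was within 1500 bp. The MYB gene was the nearest gene to the midpoint at 15 of them, and another gene was nearer at 2. The gene table gives no strand, so promoters and 3′ ends are not told apart. At the limit of the window, the last peak inside was the weaker one of MYB77 at 1312 bp. The first outside was a further peak of MYB7 at 1745 bp, with 14.4 reads under deficiency and 21.3 with sufficient Fe in the authors' deposited table.

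MYB genes stand in wider gaps than most genes. The gaps on both sides of a gene added up to a median of 6326 bp for the 14 members with a peak and 5614 bp for the 100 without, against 1849 bp for all other protein-coding genes. Among the 25% of all genes with the widest gaps, 10 of 77 members had a peak, against 14.0% of the other genes, and among the next 25% it was 4 of 23 members, against 15.0%. Of the remaining 14 members, 13 were in the following 25%, and none had one, against 12.1% of the other genes. The 1 member among the 25% with the narrowest gaps had none either, against 6.24%.

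**Figure D3:**
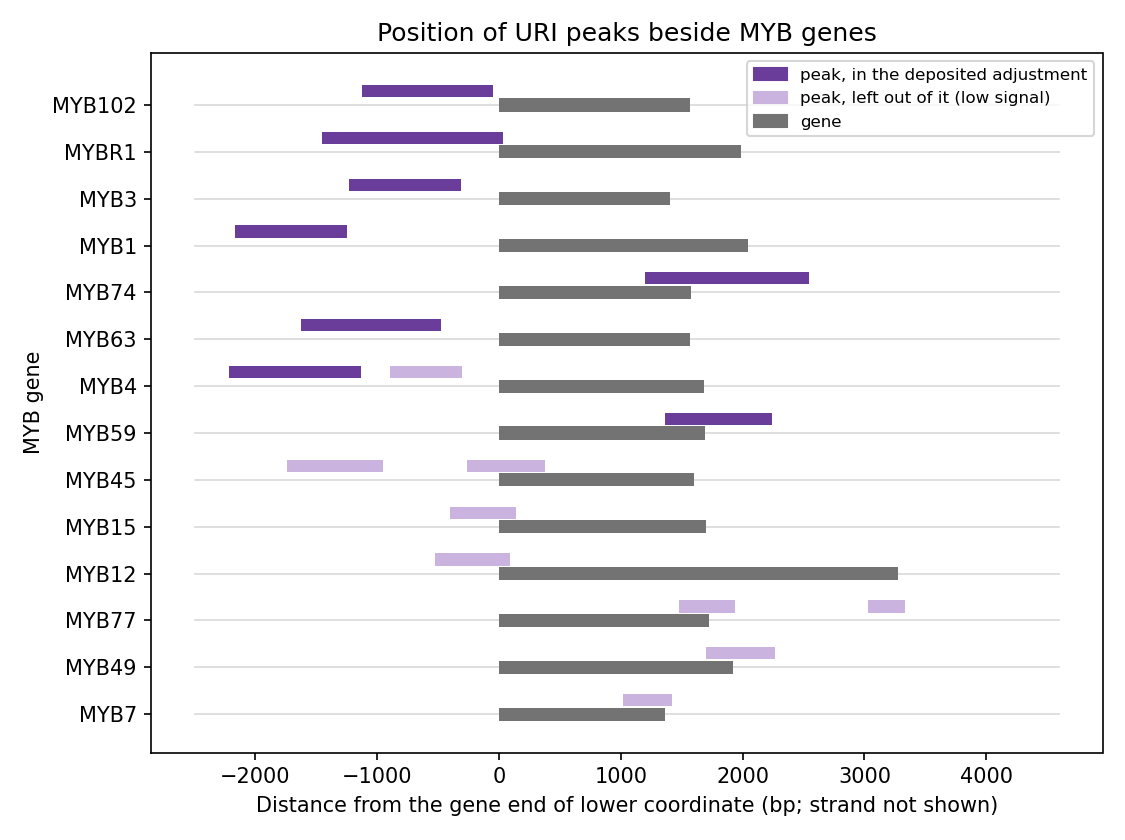
Position of the 17 URI peaks (purple bars) relative to the 14 MYB genes (grey bars), in bp from the gene end of lower coordinate, with strand not shown. Dark bars are the 8 peaks in the authors' FDR adjustment and light bars the 9 left out of it, and 3 midpoints fall inside a gene.

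In strength and width the MYB peaks were close to the rest of the table. Their median concentration was 3.38 (10.4 reads), against 3.61 (12.2 reads) for all peaks, with 8 of the 17 above that value. Median widths were 788 bp at MYB genes and 734 bp over all peaks. The median density was 16.4 reads per kb for MYB peaks, against 16.6 for all. The strongest MYB peak, at 32.2 reads over both conditions, ranked 131 in the table, and MYB102, MYBR1 and MYB3 were the MYB genes above 20 reads on average.

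**Figure D4:**
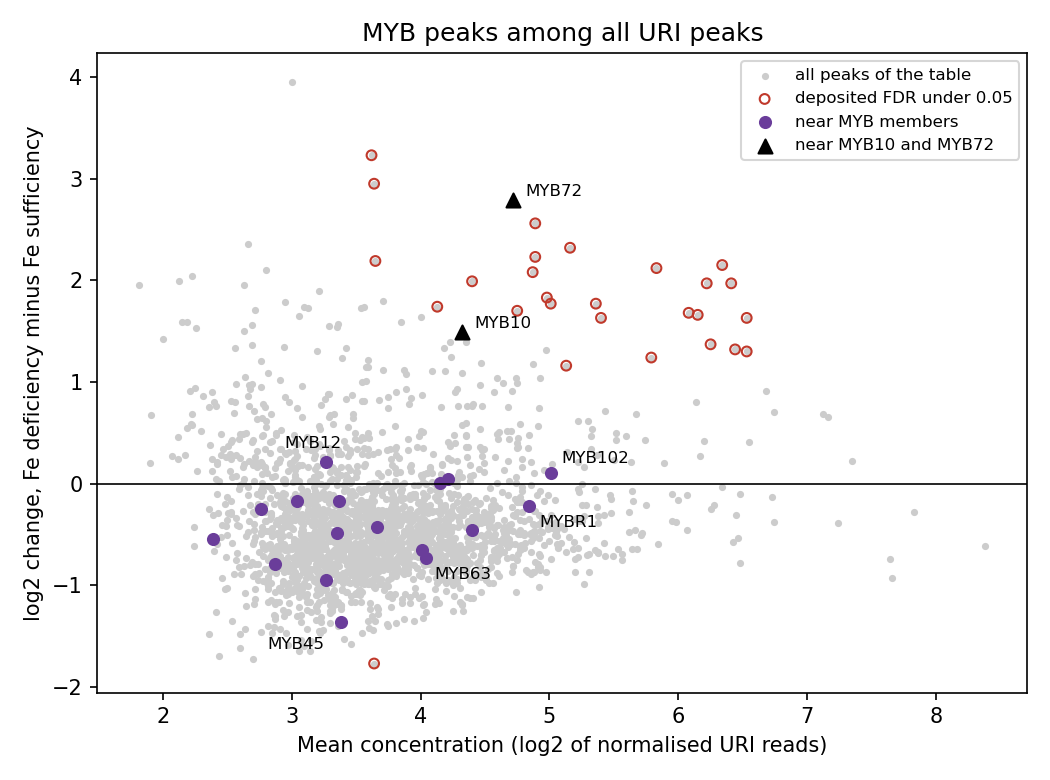
Change in URI signal (log2, Fe deficiency minus Fe sufficiency) against mean concentration (log2 of normalised reads) for all 2366 peaks, with the 17 MYB peaks as filled circles, MYB10 and MYB72 as triangles and the 27 peaks at a deposited FDR under 0.05 as rings. MYB peaks lie within the main cloud of peaks, between -1.36 and 0.21, while the 26 called increases begin at 1.16.

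Genes that work with or under MYB factors were also read. Of 7 genes for MYB partners in bHLH and WD40 complexes, 1 had a peak (14.3%), the jasmonate regulator MYC2, with 14.6 reads under deficiency and 20.7 with sufficient Fe in the authors' deposited table (change -0.50, p = 0.216). Of 15 genes for lignin monomer synthesis, 6 had a peak (40.0%), against 11.8% of protein-coding genes outside the MYB members, and neither list was tested. Each of the 6 peaks also had another gene within 1500 bp, and at the C4H peak the gene NET4B was nearer. By the authors' deposited DiffBind FDR under 0.05, 0 of the 6 peaks were higher, against 1.98% of the adjusted peaks, and 0 were lower, against 0.0763%. Only the peaks of OMT1, CAD5 and C4H entered the authors' adjustment, so the others of the 6 could not be called. At an unadjusted p under 0.05, 1 of the 6 was lower, against 10.1% of all 2366 peaks. The median change of the 6 was -0.475, against -0.46 for all peaks. Those with most signal in the authors' deposited table were OMT1, an O-methyltransferase gene (21.6 reads under deficiency, 29.4 with sufficient Fe, change -0.46), CAD5, a cinnamyl alcohol dehydrogenase gene (18.0 and 19.3, change -0.09), C4H (11.1 and 15.6, change -0.49) and 4CL2, a coumarate ligase gene (7.94 and 10.5, change -0.39). The lowest change was that of 4CL1, with 4.26 reads under deficiency and 12.9 with sufficient Fe in the authors' deposited table (change -1.60, p = 0.0158, FDR 1). Of 12 suberin genes, 0 had a peak, against 11.8% of protein-coding genes outside the MYB members, and this list was not tested.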

How the data were processed

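The submitters' processing notes name the build TAIR10 and, with no role or order, DiffBind, MACS2, Bowtie 1.2.2, Trimmomatic 0.33, Picard 2.4.1, SAMtools 1.3.1 and bedtools 2.26.0. Settings, normalisation, peak pooling and any use of the IgG libraries: not given in the sources used here. For each peak, the authors deposited log2 concentrations, a log2 fold, a p-value and an FDR (an adjusted p-value) in 1 table, and coordinates are printed as it gives them. Its headers state no scale: log2 was read from the values, since the fold column is the difference of both condition columns (sufficiency less deficiency) to within 0.01. Its sign was reversed here. The FDR column matched Benjamini-Hochberg over 1311 peaks within 0.489%.

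Gene names and positions came from RefSeq (TAIR10.1), of which no coordinates are printed. Peak midpoints fell inside genes least often with no shift (19.4%, against 37.5% or more at shifts of 500 bp or 1000 bp either way). SEs are the change divided by the normal quantile of p; for changes under 0.2 they are the median over 101 peaks of like concentration. Recentring subtracted the median change of all peaks, and p was recomputed with these SEs. Subgroups, roles and companion lists come from general knowledge. The members and lists were chosen with earlier results of these data known. Every member with a peak is named; up to 4 genes per companion list are named by concentration, and 4CL1 was chosen after its values were seen. MYB44 was matched as MYBR1. Scripts used Python 3.11.15, numpy 2.4.6, pandas 2.3.3 and scipy 1.17.1, and the recentring and overlaps were tested on simulated data.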

Additional observations from a re-analysis of the deposited data

How the results depend on the processing

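The number of MYB genes near a peak followed the window: 22 of 114 (19.3%) at 3000 bp, against 16.8% of other genes, and 9 (7.89%) where the peak had to overlap the gene, against 5.79%. With only the peaks in the authors' adjustment it was 8 (7.02%), against 6.90%. A window of 1000 bp gave 13 (11.4%), against 10.1% of other genes, and a rule on peak midpoints gave 13 (11.4%), against 10.3%. With the 9 genes that have a MYB number among their synonyms it was 15 of 123 (12.2%), against 11.8%. Counts of MYB peaks past the FDR stayed at 0 in both directions at thresholds of 0.01 and 0.1, adjusted over all peaks, recentred on the median peak and with windows of 1000 bp and 3000 bp. At 0.01 and at 1000 bp this was fixed in advance by the 0 at 0.05 within 1500 bp. The 9 peaks outside the authors' adjustment could be called only in the adjustment over all peaks. The median change was -0.235 with 1 peak per gene, between -0.34 and -0.445 with the other windows, the nearest gene, the mean or the synonyms, and 0.03 after recentring, which moves every change up by 0.46 (log2). The same step turned the sign at MYBR1 (0.24), MYB59 (0.03), MYB15 (0.29), the stronger MYB77 peak (0.29) and MYB7 (0.21). In all, 33 of 42 alternatives to 21 results kept the direction and side of the threshold, a count of like size or a median within 1 typical SE. The 33 include the counts that were fixed in advance.

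No paired analysis was possible because the table holds 1 mean per Fe condition and no value per library. Leaving out replicates was not done for the same reason. Depth is unknown, and 9 of the 17 MYB peaks were too weak for the authors' adjustment.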

Other observations

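A wider look added peaks between 1500 bp and 3000 bp of further MYB genes, all chosen after their values were seen. The strongest, nearest to AT3G08490 and 2347 bp from MYB83, a switch of secondary wall formation, had 44.6 reads under deficiency and 35.3 with sufficient Fe in the authors' deposited table (change 0.34, p = 0.258). It ranked above every peak within 1500 bp of a member. MYB48 had a change of 0.41 (p = 0.482) and MYB96, a regulator of wax synthesis, one of -1.18 (p = 0.0717), both at weak peaks of the authors' deposited table.

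Outside the MYB members, 11.8% of protein-coding genes had a peak within 1500 bp. Of the 9 genes that carry a MYB number only as a synonym, 1 had one. This was LAF1 (MYB18), a factor of far-red light signalling in the subgroup of MYB45, with 8.0 reads under deficiency and 15.5 with sufficient Fe in the authors' deposited table (change -0.96, 95% interval -1.93 to 0.01, p = 0.0535). AT4G25550 was nearer to its midpoint.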
